A study of Mus musculus with 4 samples.

Results

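The loci of the insulin-like growth factor pathway were examined for H3K27me3, the trimethylation of histone H3 at lysine 27, in mouse blood progenitors of adult and fetal origin. The members were 6 genes: the ligand gene Igf1, the receptor genes Igf1r, Insr and Igf2r, and the adaptor genes Irs1 and Irs2. Each was represented by a window fixed by genome position on build mm9, and every deposited peak that overlapped a window by at least 1 bp was taken. The windows were chromosome 10 from 87.27 to 87.45 Mb for Igf1, chromosome 7 from 75.08 to 75.4 Mb for Igf1r, and chromosome 17 from 12.86 to 12.98 Mb for Igf2r. They were chromosome 8 from 3.14 to 3.3 Mb for Insr, chromosome 1 from 82.21 to 82.31 Mb for Irs1, and chromosome 8 from 10.97 to 11.03 Mb for Irs2. Together they spanned 940 kb and held 22 of the 20024 peaks of the adult bone marrow list and 34 of the 31847 peaks of the fetal liver list.

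The adult group consisted of lineage-negative bone marrow cells of C57BL/6 mice aged 8 weeks, and the fetal group of lineage-negative liver cells of C57BL/6 embryos at day 14.5. Lineage-negative cells lack the surface proteins of mature blood cells. Both groups were kept overnight in medium with FCS, IL-3, IL-6, FLT3 ligand and SCF, were infected with a NOTCH1ΔE (N1dE) lentivirus, were grown for 3 further days and were sorted for the viral GFP marker. Every sample therefore carried N1dE, an activated form of NOTCH1, and a group without the virus was not analysed here. Of the 4 samples, 2 were immunoprecipitations with 1 peak list each and 2 were the inputs used as their controls. The peak names state that libraries were merged before calling. Without replicate lists no spread can be given and no test was possible, so the values below are descriptions, and the read depth behind them is unknown. Peak lists hold no expression values, so the labelled cell types were not checked against marker genes.

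IGF1 is a secreted growth factor that binds the receptor tyrosine kinase encoded by Igf1r. This receptor and the closely related insulin receptor, encoded by Insr, pass the signal on by phosphorylating the docking proteins IRS1 and IRS2, which engage the PI3K-AKT and MAPK routes. The product of Igf2r binds IGF2 and carries it to lysosomes, so it removes ligand and does not signal as a kinase. H3K27me3 is deposited by Polycomb repressive complex 2 (PRC2) and marks genes kept silent, often as broad domains around start sites rich in CpG dinucleotides.

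The 6 loci fell into distinct kinds. Igf2r and Irs1 carried long runs of H3K27me3 peaks in both populations, Igf1 carried a shorter domain that was wider in bone marrow, Igf1r and Irs2 had a single peak in 1 list each, and Insr had none. A bone marrow peak was present in 4 of the 6 windows and a fetal liver peak in 4 of 6. Among genome windows of the same widths, 19.7 to 49.7% held a bone marrow peak and 24.8 to 55.4% a fetal liver peak, depending on the width. Igf2r and Irs1 together held 85.9% of the bone marrow coverage and 94.4% of the fetal liver coverage of the 6 windows. The total was 45.7 kb for the adult and 71.7 kb for the fetal list, a ratio of 1.57, close to the ratio of 1.51 between the whole lists. Fetal liver peaks covered more bases at 3 loci (Igf2r, Irs1 and Irs2) and bone marrow peaks at 2 (Igf1 and Igf1r). In the genome, 20.2 to 28.8% of windows as wide as the first 3 were covered more in fetal liver. Of windows as wide as Igf1 and Igf1r, 11.4 and 13.3% were covered more in bone marrow.

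**Figure D1:**
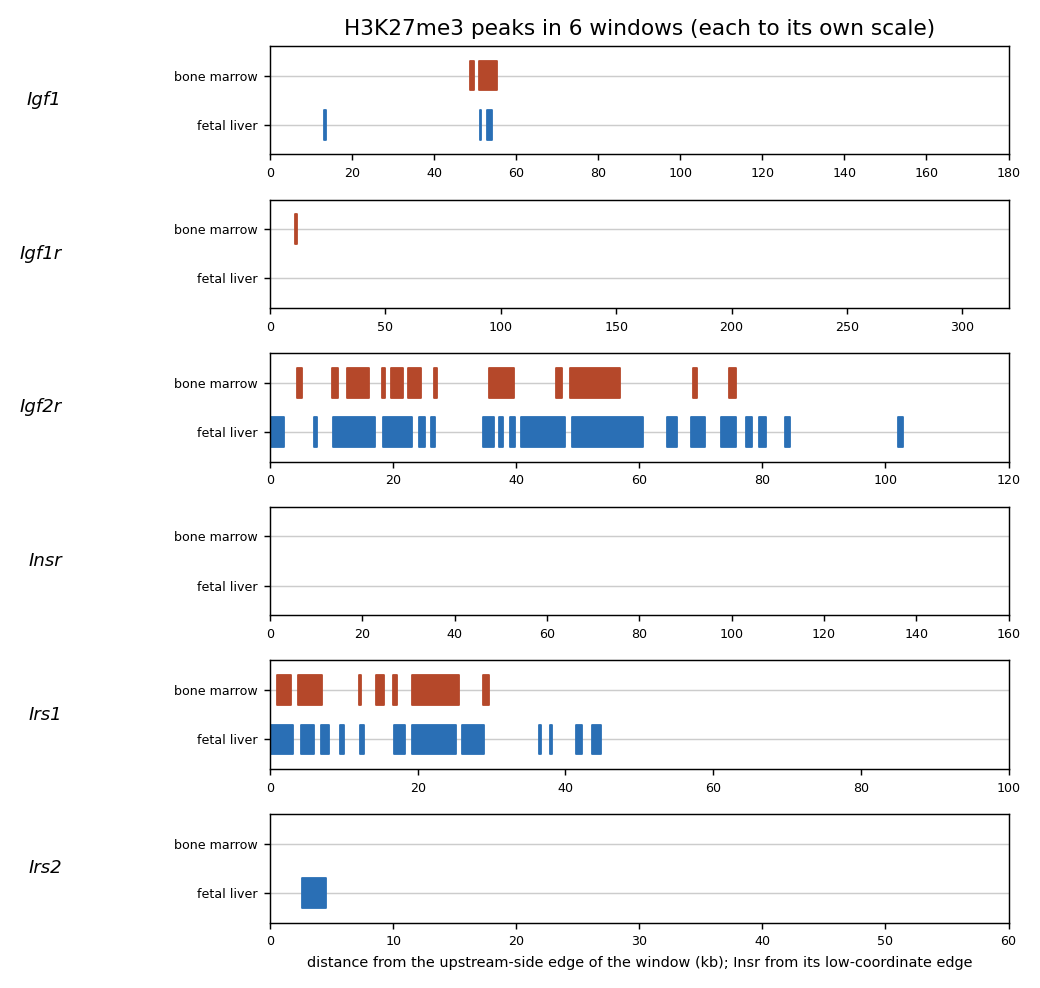
Peaks of the bone marrow list (upper row of each panel) and of the fetal liver list (lower row) along the 6 windows, as distance in kb from the window edge on the upstream side of the gene, except for Insr, which is drawn from its low-coordinate edge. The 12 bone marrow and 18 fetal liver peaks at Igf2r and the 7 and 12 at Irs1 form long runs, whereas Insr is empty.

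To show how the start regions of these genes differ, the 250 bases before the start site are printed for 4 of them from RefSeq on build GRCm38.p6, with each CG dinucleotide in capitals (a CG reads the same on both strands). Entries were matched by symbol for 5 of the 6 members, all but Insr. The table is on another build than the peaks, so these sequences were not placed on the peaks. Igf1 lies on the plus strand of its chromosome (chr10:87860861-87861110 for the stretch shown) and has several start sites, of which the table gives 1. Igf1r is also on the plus strand (chr7:67952007-67952256), and Igf2r (chr17:12769707-12769956) and Irs1 (chr1:82291440-82291689) are on the minus strand.
Igf1: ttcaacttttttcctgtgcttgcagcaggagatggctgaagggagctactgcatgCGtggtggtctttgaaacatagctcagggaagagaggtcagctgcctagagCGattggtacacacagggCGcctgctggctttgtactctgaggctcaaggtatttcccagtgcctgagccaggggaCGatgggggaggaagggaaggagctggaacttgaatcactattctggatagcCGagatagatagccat
Igf1r: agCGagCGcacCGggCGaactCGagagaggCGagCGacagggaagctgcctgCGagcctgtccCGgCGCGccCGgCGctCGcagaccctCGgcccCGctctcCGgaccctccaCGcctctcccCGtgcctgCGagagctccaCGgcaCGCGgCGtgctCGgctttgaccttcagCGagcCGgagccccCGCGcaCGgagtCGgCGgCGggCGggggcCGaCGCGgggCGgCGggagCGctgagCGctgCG
Igf2r: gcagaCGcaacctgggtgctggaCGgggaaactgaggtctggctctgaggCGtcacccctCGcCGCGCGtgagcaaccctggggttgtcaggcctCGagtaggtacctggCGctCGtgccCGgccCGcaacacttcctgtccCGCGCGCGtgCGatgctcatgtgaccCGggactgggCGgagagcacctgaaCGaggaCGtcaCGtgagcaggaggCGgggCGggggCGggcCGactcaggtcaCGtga
Irs1: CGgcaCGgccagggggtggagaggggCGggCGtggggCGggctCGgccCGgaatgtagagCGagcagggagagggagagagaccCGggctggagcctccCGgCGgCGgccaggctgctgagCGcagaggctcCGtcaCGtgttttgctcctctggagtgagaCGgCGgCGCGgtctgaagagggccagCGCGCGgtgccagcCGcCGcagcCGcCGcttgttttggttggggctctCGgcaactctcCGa

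The Igf1 stretch held 5 CG dinucleotides in 250 bases, below the median of 6 over the 32851 promoters of the table, of which 92.1% held at least 1 CG. The other start regions were dense in CG, with 27 at Igf2r, 28 at Irs1, 34 at Irs2 and 42 at Igf1r. Fewer CG dinucleotides than at Igf1r were present in 99.1% of all promoters, and fewer than at Igf2r in 91.4%. The CG-dense genes were not alike in the mark, since Igf2r and Irs1 lay in long runs of peaks and Igf1r and Irs2 did not.

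At Igf1, the ligand gene, H3K27me3 peaks covered 5.47 kb of the 180 kb window in bone marrow against 2.03 kb in fetal liver, 2.69 times as much in the adult list. The bone marrow list had 2 peaks there. The first ran from 87318758 to 87319768 (1011 bp) with a fold enrichment over input of 1.51, and the second from 87320829 to 87325282 (4454 bp) with a fold of 1.80. They formed a block of 6.53 kb, whose peak centres lay 49.3 and 53.1 kb from the window edge on the upstream side of the gene.

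The fetal liver list had 3 peaks in the Igf1 window. Those from 87321089 to 87321317 (229 bp, fold 2.79) and from 87322980 to 87324122 (1143 bp, fold 2.50) lay wholly inside the wider of the bone marrow peaks. The remaining one, from 87283082 to 87283740 (659 bp, fold 1.28), was 35.0 kb from the nearest bone marrow peak, toward the upstream side. Thus 67.6% of the fetal liver bases at Igf1 were shared with bone marrow, but only 25.1% of the bone marrow bases were shared with fetal liver. The part seen in bone marrow alone was 4.09 kb, and the part seen in fetal liver alone was 0.659 kb.

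Where the lists overlapped at Igf1, the bone marrow peak ranked higher by width than by fold, and the fetal liver peaks higher by fold than by width. The wider bone marrow peak stood at the 88.6th percentile of its list by width and at the 19.3rd by fold, and the other bone marrow peak at the 6.09th by fold. The fetal liver peaks inside the bone marrow domain stood at the 92.9th and 86.8th percentiles of their own list by fold and at the 4.45th and 57.2nd by width. The separate fetal liver peak ranked below the middle of its list by both, at the 2.84th percentile by fold and the 33.5th by width. The caller gives the mean over a peak, and the folds of wide and narrow peaks are therefore averages over unequal lengths. The −log10 q values were 1.46 and 1.15 for the bone marrow peaks and 2.33, 2.17 and 0.664 for the fetal liver peaks. When peaks with a −log10 q under 2 were left out, the order turned around: nothing was left of the adult domain at Igf1, and 1.37 kb of fetal liver peaks remained.

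As a background, chromosomes 1 to 19 and X were cut end to end into windows of the same width as each locus. Of 14316 windows of 180 kb, 37.5% held a bone marrow peak, 43.4% held a fetal liver peak and 11.4% were covered more in bone marrow, as Igf1 was. Among the 4939 windows with peaks of both lists, 24.5% were covered more in bone marrow, and 3.99% had a ratio of bone marrow to fetal liver at least as large as that at Igf1. These windows include gene-poor sequence, so the shares describe the genome and not other genes. Less bone marrow coverage than at Igf1 was found in 84.9% of the windows. The 5.47 kb there lay between the median of 3.98 kb over windows with a bone marrow peak and the 90th percentile of 8.47 kb over all windows.

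Peaks carry no strand. In the RefSeq gene table the noncoding gene Igf1os overlaps Igf1, so the mark here cannot be given to one of these genes. Toward the downstream side the locus was free of the mark. The next peak beyond the window on that side was 897.7 kb away in the adult list and 881.8 kb away in the fetal list. On the upstream side the nearest peak outside the window was 23.6 kb from its edge in bone marrow against 8.70 kb in fetal liver, with folds of 1.63 and 1.23.

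**Figure D2:**
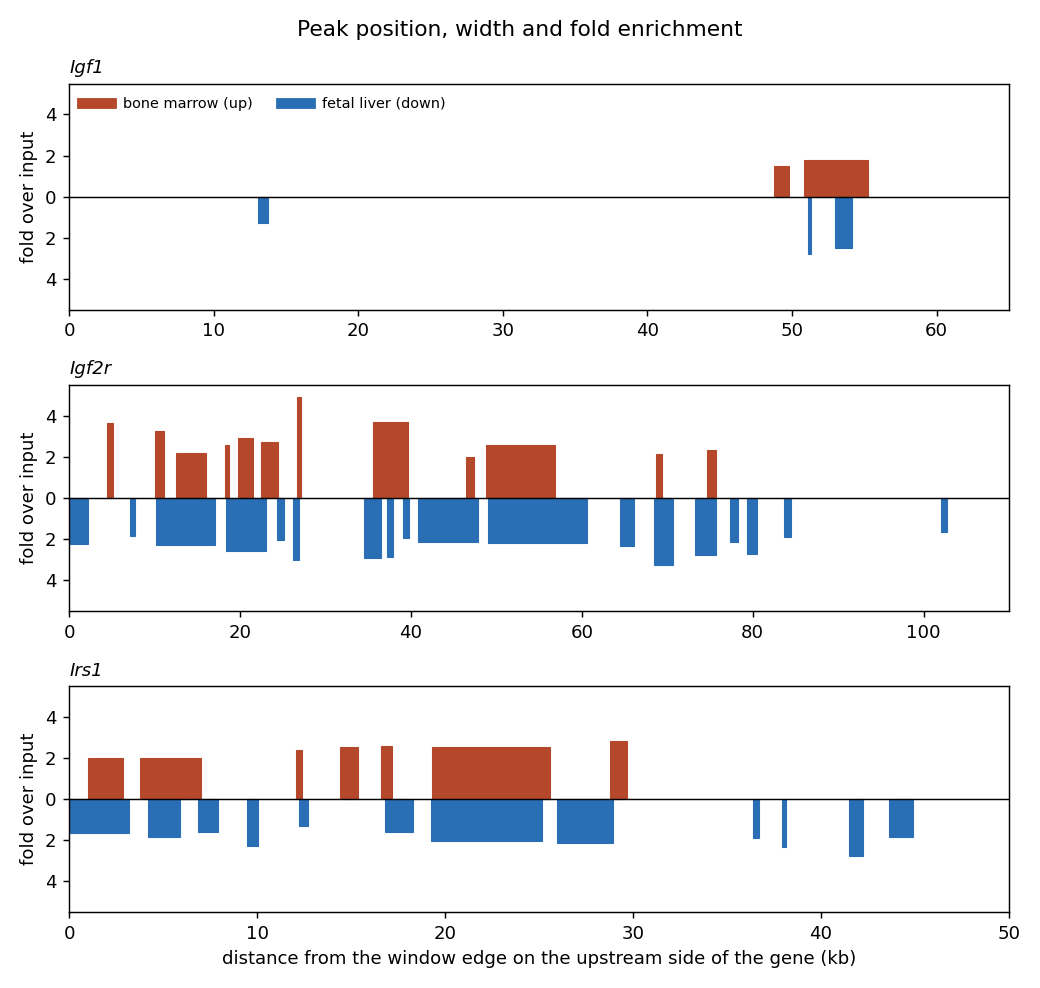
Peaks at Igf1, Igf2r and Irs1 as boxes whose width is the peak width (kb along the horizontal axis, measured from the window edge on the upstream side of the gene) and whose height is the authors' fold enrichment over input, with bone marrow drawn upward and fetal liver downward. At Igf1 the bone marrow boxes are low (1.51 and 1.80), and the 2 fetal liver boxes beneath the wider one are narrower than it and higher (2.79 and 2.50).

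Igf1r, which encodes the signalling receptor for IGF1, was almost free of the mark. The bone marrow list had 1 peak in the 320 kb window, from 75090880 to 75091837 (958 bp), with a fold of 2.18 and a −log10 q of 1.73. Its width and fold were near the middle of the list, at the 50.1st and 55.3rd percentiles. It lay 11.4 kb inside the edge on the upstream side of the gene, and the nearest fetal liver peak was 41.3 kb away. The fetal liver list had no peak in the window. Among 8049 windows of 320 kb, 49.7% held a bone marrow peak, 55.4% held a fetal liver peak and 13.3% were covered more in bone marrow.

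The Igf1r window was flanked by peaks on both sides. Just outside it, a bone marrow peak of 1133 bp ended 2.82 kb before the upstream-side edge, and the nearest fetal liver peak on that side was 30.4 kb away. On the downstream side the next peaks were 9.15 kb away in bone marrow against 9.63 kb in fetal liver. The adjacent coding genes in the RefSeq table are Synm and Pgpep1l, and the peaks outside the window were not assigned to either.

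Insr, the insulin receptor gene, held no H3K27me3 peak of either list in its 160 kb window. Of 16107 windows of 160 kb, 35.2% held a bone marrow peak, 41.1% held a fetal liver peak and 56.0% held neither, so an empty window was the most common state. On the low-coordinate side no peak of either list was found down to the chromosome end, a stretch that is mostly an assembly gap. On the other side the first peak was 186.8 kb beyond the window in the adult list (608 bp, fold 1.85) and 183.6 kb beyond it in fetal liver (384 bp, fold 1.51). With the read depth unknown, a weak signal below the calling threshold was not detectable in these lists.

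Igf2r, the receptor that clears IGF2, had the most H3K27me3 of the 6 loci in both lists. It is an imprinted gene, expressed mainly from the maternal chromosome in most mouse tissues, and the noncoding RNA Airn, which starts within it and runs in the opposite direction, silences the paternal copy. The RefSeq table lists Airn as overlapping Igf2r. Peaks covered 25.1 kb (20.9%) of the 120 kb window in bone marrow against 47.8 kb (39.8%) in fetal liver, 1.90 times as much. The lists do not separate the parental alleles, nor Igf2r from Airn.

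The 12 bone marrow peaks at Igf2r spread over 71.3 kb and the 18 fetal liver peaks over 102.8 kb within the window. Of the bone marrow bases 80.8% were also in fetal liver peaks, whereas 42.4% of the fetal liver bases were in bone marrow peaks. Peaks with an overlap numbered 11 of 12 in bone marrow and 11 of 18 in fetal liver. The widest bone marrow peak ran from 12923128 to 12931226 (8099 bp, fold 2.57). It overlapped the widest fetal liver peak, from 12919351 to 12930947 (11597 bp, fold 2.21), over 7820 bp.

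The fetal excess at Igf2r was spread along the marked part of the window. In the first 10 kb from the edge on the upstream side coverage was 0.797 kb in bone marrow against 2.78 kb in fetal liver, and between 10 and 20 kb it was 5.30 kb against 8.49 kb. The largest difference of any bin was between 40 and 50 kb, where 2.18 kb were marked in the adult and 8.04 kb in the fetal list. Between 50 and 60 kb coverage was 6.87 kb against all 10.0 kb, and between 70 and 80 kb it was 1.12 kb against 4.68 kb. Past 80 kb bone marrow had no peak, while fetal liver had 1.40 kb between 80 and 90 kb and 0.764 kb between 100 and 110 kb. The bin from 30 to 40 kb was the only one of the Igf2r window with more bone marrow coverage, 4.11 kb against 3.26 kb.

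Several bone marrow peaks at Igf2r stood near the top of their list by fold. The peak from 12952865 to 12953350 (486 bp) had a fold of 4.91 and a −log10 q of 6.52, at the 99.7th percentile of its list by fold. A fetal liver peak from 12953121 to 12953785 overlapped it by 230 bp and had a fold of 3.04, at the 95.8th percentile of its own list. Other high bone marrow peaks were those from 12940330 to 12944443 (4114 bp, fold 3.68), from 12974808 to 12975604 (797 bp, fold 3.64) and from 12968914 to 12969951 (1038 bp, fold 3.26). The second of these had no fetal liver overlap, although a fetal liver peak lay 1.88 kb away. In fetal liver the highest fold was 3.27, at the 97.4th percentile, in the peak from 12909379 to 12911517.

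Among 21481 windows of 120 kb, 30.0% held a bone marrow peak, 35.9% held a fetal liver peak and 28.8% were covered more in fetal liver. Less coverage than at Igf2r was found in 98.8% of these windows for bone marrow and in 99.4% for fetal liver. Of the 5864 windows with peaks of both lists, 31.6% had a ratio of fetal liver to bone marrow at least as large as at Igf2r. The order turned around under stricter cuts. Adult and fetal coverage were 19.9 and 17.0 kb among peaks whose −log10 q reached 2, and 6.44 and 2.80 kb among those whose fold reached 3.

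**Figure D3:**
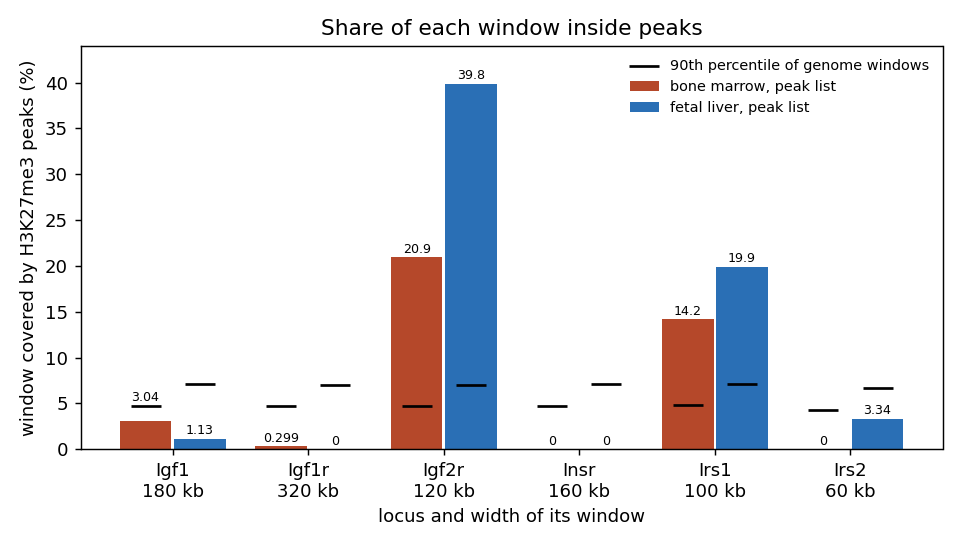
Percent of each window inside H3K27me3 peaks for the bone marrow and fetal liver lists (bars), with a black line for the 90th percentile of genome windows of the same width. Igf2r (20.9% and 39.8%) and Irs1 (14.2% and 19.9%) stand above the line in both lists, and the other 4 loci lie below it.

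Irs1 encodes the docking protein that links the IGF1 and insulin receptors to PI3K. Its 100 kb window carried 7 bone marrow peaks over 14.2 kb and 12 fetal liver peaks over 19.9 kb, 1.40 times as much. The cores coincided closely. The widest bone marrow peak, from 82284405 to 82290708 (6304 bp, fold 2.54), and the widest fetal liver peak, from 82284851 to 82290725 (5875 bp, fold 2.04), shared 5858 bp, or 92.9% of the first and 99.7% of the second. The −log10 q of these widest peaks was 1.94 in bone marrow and 1.33 in fetal liver, both under 2. In all, 10.3 kb were common to both lists, which made up 72.6% of the adult and 51.8% of the fetal coverage.

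The fetal liver run reached farther in the direction of transcription. Counted from the edge on the upstream side, no bone marrow peak at Irs1 had its centre beyond 29.2 kb, and the marked stretch spanned 28.7 kb. Fetal liver had 4 further peaks with centres between 36.5 and 44.2 kb, none of which met a bone marrow peak, and its stretch inside the window spanned 44.9 kb. These 4 were short, between 200 and 1286 bp, and the distance to the nearest bone marrow peak was 6.69 to 13.9 kb. One of them, from 82267765 to 82268503, had the highest fold of the fetal liver peaks at Irs1, 2.79, at the 92.9th percentile of its list. In bone marrow the highest fold at Irs1 was 2.83, at the 87.8th percentile, in the peak from 82280315 to 82281224 (910 bp, −log10 q 2.06).

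By fold, bone marrow peaks at Irs1 ranked higher in their own list than the fetal liver ones did in theirs. By width they did not, with medians of 962 bp in bone marrow and 1190 bp in fetal liver, against 957 and 945 bp over the lists. The median fold was 2.54 in bone marrow, against 2.12 over that whole list, and 1.88 in fetal liver, against 1.93 over the whole list. When only the 20024 fetal liver peaks with the highest −log10 p were kept, as many as the adult list holds, 8 of its 12 peaks at Irs1 remained, and its coverage was 13.6 kb, below the 14.2 kb of bone marrow. Among peaks whose −log10 q reached 2, adult coverage of Irs1 was 1.51 kb and fetal coverage 0.739 kb. No base was shared then, as the fetal liver peak that remained, from 82267765 to 82268503, met no bone marrow peak.

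The Irs1 domain stood alone on one side. Toward the downstream side of the gene the next bone marrow peak was 3638.8 kb beyond the window and the next fetal liver peak 619.4 kb. On the upstream side the domain ran up to the edge: a fetal liver peak of 4270 bp crossed it, and a bone marrow peak of 1175 bp (fold 2.30) began 97 bp past it and was not counted. Beyond these the next fetal liver peak was 247.8 kb away. Among 25778 windows of 100 kb, 27% held a bone marrow peak, 32.7% held a fetal liver peak and 26.4% were covered more in fetal liver. Less coverage than at Irs1 was found in 97.4% of them for bone marrow and in 97.1% for fetal liver. A ratio of fetal liver to bone marrow at least as large was found in 50.2% of the windows with peaks of both lists.

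Irs2, the gene for the second docking protein, had no bone marrow peak and 1 fetal liver peak in its 60 kb window, from 11025432 to 11027435 (2004 bp). Its fold was 1.81 and its −log10 q was 0.878, at the 36.0th and 31.7th percentiles of the fetal liver list. It lay 3.57 kb inside the edge on the upstream side of the gene, and the nearest bone marrow peak was 30.6 kb away. The peak was lost when the fetal liver list was shortened to 20024 peaks. Among 42970 windows of 60 kb, 19.7% held a bone marrow peak, 24.8% held a fetal liver peak and 20.2% were covered more in fetal liver. In the RefSeq table the noncoding gene 9530052E02Rik overlaps Irs2.

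Over the 6 loci, 18 of 22 bone marrow peaks (81.8%, exact 95% interval 59.7 to 94.8%) overlapped a fetal liver peak, against 68.0% over the whole list. Of the fetal liver peaks 20 of 34 (58.8%, 40.7 to 75.4%) overlapped a bone marrow peak, against 39.8% over the whole list. The interval for bone marrow includes the share of its whole list and that for fetal liver does not. These intervals cover counting error only, and neighbouring peaks of a locus are not independent, so they do not test the shares against the whole lists. Of the overlapping peaks, 11 in each list were at Igf2r, and 6 bone marrow and 7 fetal liver ones were at Irs1. The median width was 1024.5 bp in bone marrow and 1140.5 bp in fetal liver, against 957 and 945 bp over the lists. A −log10 q of 2 or more was reached by 11 of 22 adult and 13 of 34 fetal peaks, that is 50.0% and 38.2%, against 26.5% and 15.2% over the lists. Of these, 9 in bone marrow and 10 in fetal liver were at Igf2r.

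**Figure D4:**
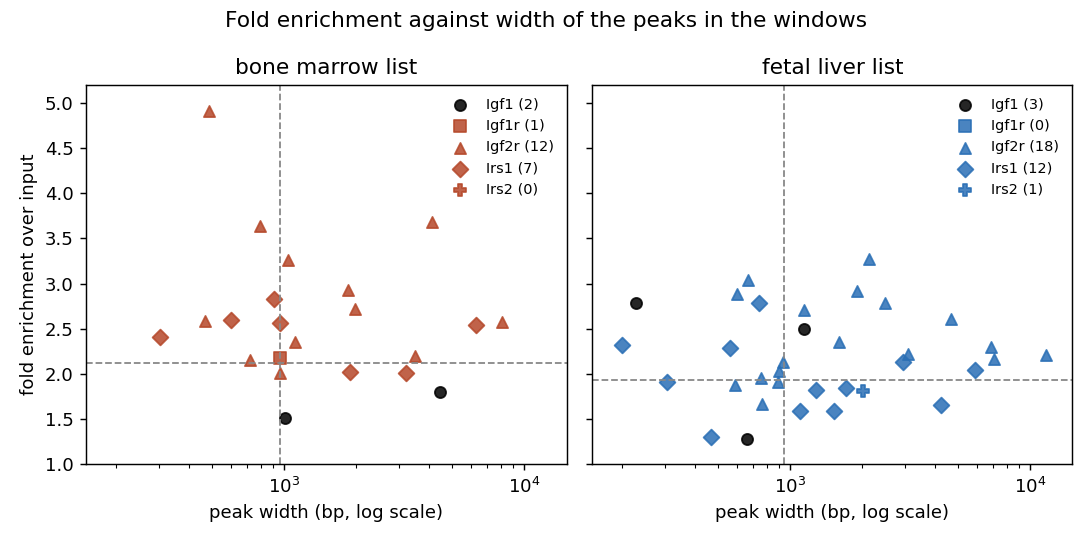
Fold enrichment over input against peak width (bp, log scale) for the 22 bone marrow peaks (left) and the 34 fetal liver peaks (right) of the windows, with dashed lines at the medians of each whole list. The bone marrow peaks at Igf1 (black circles) lie below the median fold of 2.12, and 2 of the 3 fetal liver peaks there lie above the median of 1.93.

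The order of the populations depended on the score at the loci with a mark in both lists. Igf1 was covered more in bone marrow with peaks as deposited, with peaks of 1 kb or wider and with widened windows. The same order held against the shortened fetal liver list, but that setting could only lower fetal liver coverage and could not turn it. At a fold of at least 3 neither list had a peak at Igf1. Igf1 was covered more in fetal liver once a −log10 q of 2 was required. Igf2r and Irs1 moved the opposite way under that cut. The peak counts of the whole lists turned in the same direction as Igf2r and Irs1. They were 20024 in bone marrow and 31847 in fetal liver as deposited, and 5313 and 4844 under the cut. The scores of both lists were not put on a common scale, since read depth was not used here. What caused the turn was not tested.

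**Figure D5:**
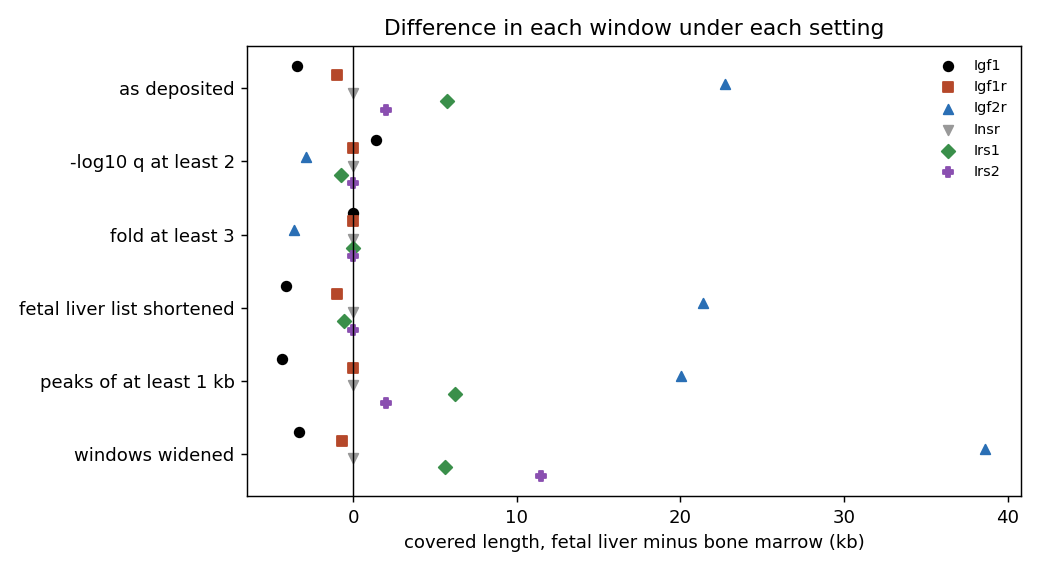
Covered length in fetal liver minus that in bone marrow (kb) for each window, with peaks as deposited and under 5 other settings. Values right of 0 have more fetal liver coverage, and Igf1, Igf2r and Irs1 each change sides once a −log10 q of 2 is required.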

How the data were processed

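H3K27me3 was measured by native chromatin immunoprecipitation and sequencing in 1 bone marrow and 1 fetal liver sample, each with an input. The submitters' processing notes name build mm9 and the tools MACS2 2.1.0, BWA 0.5.7 and Picard. Their settings and the depth are not stated in the labels. The deposited fold is a ratio over input that the authors' peak caller computed per peak. The deposited significance columns are −log10 p and −log10 q. The deposited score column was not used. Groups came from sample titles.

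Peaks were intersected with the 6 windows in Python 3.11.15 (numpy 2.4.6, pandas 2.3.3), and counts and covered bases were identical to those of bedtools 2.31.1. The interval code was tested on simulated data. Genome windows began at 3 Mb, with chromosome lengths from GenomeInfoDb 1.38.1. Exact binomial intervals came from scipy 1.17.1, and figures from matplotlib 3.10.9. Coordinates count from 1. Alternatives were cuts on −log10 q, fold and width, a shortened fetal liver list, wider windows, whole peak lengths and 50% cover as overlap. The 6 members were all named, with the widest and strongest peaks of each. Members and lists were chosen with earlier results of these data known. No mm9 gene table was used, so distances to start sites and other pathway genes are not analysed here.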

Additional observations from a re-analysis of the deposited data

How the results depend on the processing

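No paired analysis was possible because each population has a single list. Values are covered bp, fetal liver minus bone marrow, unless stated. At a −log10 q of at least 2, Igf1 turned from -3434 to 1372, Igf2r from 22706 to -2886, Irs1 from 5709 to -772 and the sum of the 6 windows from 26027 to -2286. Fetal liver then covered more in 1 window against 3, 2 windows held a bone marrow peak against 4, and 54.5% of bone marrow peaks had an overlap against 81.8%. At a fold of at least 3, Igf1 was at 0, Igf2r and the sum both at -3631, fetal liver covered more in 0 windows, 1 window held a peak of each list, and 25.0% of bone marrow peaks had an overlap. With the fetal liver list shortened, Irs1 turned to -547, the sum was 15752 and fetal liver covered more in 1 window. Widening each window by 50 kb on both sides gave a sum of 51706 and an overlap of 40.7% of fetal liver peaks, against 58.8%. If 50% of a peak had to be covered, 59.1% of adult and 29.4% of fetal peaks counted as overlapping. The cause of these changes was not tested. Of 69 alternative values, 39 stayed within 1.5 times of the reported value or, for shares, within its interval, and 7 turned direction. The 39 include the values of Insr, which were 0 under every setting. They also include values that a setting could not change. Under the shortened fetal liver list these were the number of windows with a bone marrow peak and the value of Igf1r, where fetal liver had no peak. With whole peak lengths they were the values of Igf1, Igf1r and Irs2, where no peak crossed a window edge. The unknown depth limits every comparison of coverage.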

Other observations

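The surroundings of Irs2 differed more between the lists than its window did. This was noticed after the values were seen. In the 500 kb below the window, toward the coding gene Myo16, there were 37 fetal liver and 4 bone marrow peaks, covering 45.6 and 3.56 kb. In the 500 kb above it, toward Col4a1, there were 36 and 6 peaks, covering 42.5 and 9.28 kb. Among 5149 genome windows of 500 kb, 98.7% had a smaller fetal liver minus bone marrow difference than the lower flank and 97.5% a smaller one than the upper flank. These fetal liver peaks were weak, with a median −log10 q of 0.815 below and 0.877 above, and 2 and 1 of them, respectively, reached 2.

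Around Igf2r the fetal liver list was also the longer, with 20 peaks against 5 in the 500 kb below and 12 against 3 in the 500 kb above. The difference in coverage was smaller in 94.95% of the genome windows than in the lower flank and in 88.9% than in the upper. A −log10 q of 2 was reached by 5 fetal liver and 3 bone marrow peaks in the lower flank, and by 0 and 3 in the upper. Above Insr the bone marrow list was the longer, with 12 bone marrow and 8 fetal liver peaks covering 11.3 and 7.85 kb. There 2.7% of the genome windows had a smaller fetal liver minus bone marrow difference. Below Igf1, on its upstream side, each list had 4 peaks, covering 13.9 kb in the adult and 21.7 kb in the fetal list, the opposite order to that inside the Igf1 window. The widest of these peaks was 10652 bp in the adult and 19198 bp in the fetal list. Their highest −log10 q was 1.29 and 0.903, and 83.8% of the genome windows had a smaller fetal liver minus bone marrow difference.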
